A study of Mus musculus with 16 samples.

Results

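MiRNA expression was compared between lungs of allergic mice that received dexamethasone (OVA/OVA DEX, 4 arrays) and lungs of allergic mice that did not (OVA/OVA, 6 arrays), which are 10 of the 16 Agilent 1-colour mouse miRNA arrays of the series. The members are all 611 mouse miRNAs on the array, of which 266 were tested, each having been detected throughout 1 group or more. BALB/c mice of 8 to 12 weeks were sensitised intraperitoneally with 50 μg ovalbumin (OVA, the egg white protein used as allergen) and 1 mg Alhydrogel on day 0, and challenged intranasally with 10 μg OVA on days 12 to 15. Total RNA was taken from whole lung 24 hours after the last challenge. OVA/OVA DEX mice had in addition 3 mg/kg dexamethasone by intraperitoneal injection from day 11 on every 2nd day, and OVA/OVA mice are labelled as treated with PBS. PBS/OVA mice (4 arrays) were challenged with OVA and PBS/PBS mice (2 arrays) with PBS per the labels. Both groups are labelled as sensitised with PBS, and the methods give non-sensitised mice 1 mg Alhydrogel in saline without OVA. These 2 groups served as the background levels. The labels do not say whether each array holds a separate mouse, so p-values measure only the spread between these arrays.

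Dexamethasone is a synthetic glucocorticoid that binds the glucocorticoid receptor and lowers the transcription of many inflammatory genes. MiRNAs are short RNAs that lower the output of mRNAs carrying a match to their seed, bases 2 to 8 of the mature sequence. MiRNAs of one seed can therefore act on overlapping sets of mRNAs, while miRNAs of one cluster are cut from a shared primary transcript and the 5p and 3p arms from a shared hairpin. In whole lung a miRNA level depends both on how many cells of a type are present and on how much each cell holds, and these bulk arrays cannot tell fewer cells from less RNA per cell.

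Sequences of the miRNAs around which the results turn are given first, from RefSeq (GRCm38.p6), 5′ to 3′, with the seed in capitals. RefSeq sequences were matched for 29 of the 34 miRNAs that passed the test and the 2-fold threshold. The following were lower in OVA/OVA DEX. All but miR-188-5p, shown as a member of a cluster on the X chromosome, are known from leukocytes, inflammation or proliferating cells.
miR-155-5p (chr16:84714143-84714165, + strand): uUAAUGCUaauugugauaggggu
miR-21a-5p (chr11:86584120-86584141, - strand): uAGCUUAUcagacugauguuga
miR-142a-3p (chr11:87756903-87756925, + strand): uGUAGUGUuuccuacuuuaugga
miR-18a-5p (chr14:115043867-115043889, + strand): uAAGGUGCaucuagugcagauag
miR-188-5p (chrX:7248031-7248051, - strand): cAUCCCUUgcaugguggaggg
The next 8 form 2 seed groups, GGCAGUG and AGUGCAA, among the tested miRNAs with a matched sequence. They are shown because they share a seed and only some of them were called. miR-34c-5p was tested but had no matched sequence, and is not placed in a seed group.
miR-449a-5p (chr13:113037549-113037570, + strand): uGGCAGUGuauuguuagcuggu
miR-449c-5p (chr13:113036008-113036028, + strand): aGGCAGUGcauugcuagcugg
miR-34a-5p (chr4:150068473-150068494, + strand): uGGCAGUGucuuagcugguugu
miR-34b-5p (chr9:51103610-51103632, - strand): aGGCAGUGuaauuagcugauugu
miR-130b-3p (chr16:17124071-17124092, - strand): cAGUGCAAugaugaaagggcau
miR-721 (chr5:136375777-136375797, - strand): cAGUGCAAuuaaaagggggaa
miR-301a-3p (chr11:87113054-87113076, + strand): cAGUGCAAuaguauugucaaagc
miR-130a-3p (chr2:84741116-84741137, - strand): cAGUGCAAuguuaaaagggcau
Of the miRNAs that were higher, the erythroid pair and miR-551b-3p are shown.
miR-451a (chr11:78073186-78073207, + strand): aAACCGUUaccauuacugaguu
miR-144-3p (chr11:78073047-78073066, + strand): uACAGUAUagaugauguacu
miR-551b-3p (chr3:29416879-29416899, + strand): gCGACCCAuacuugguuucag
The last 5 were lower and are examples with a high content of G. Others called lower are as rich in G and not shown, such as miR-135a-1-3p (45.5%, as in miR-139-3p).
miR-705 (chr6:85336341-85336360, - strand): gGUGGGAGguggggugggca
miR-877-5p (chr17:35960795-35960814, - strand): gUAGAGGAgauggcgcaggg
miR-671-5p (chr5:24592132-24592154, + strand): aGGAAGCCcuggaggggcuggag
miR-139-3p (chr7:101475418-101475439, + strand): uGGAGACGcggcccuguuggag
miR-125a-3p (chr17:17830855-17830876, + strand): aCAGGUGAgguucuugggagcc

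The summed signal of the 611 miRNAs before scaling was 499733 to 638811 on OVA/OVA DEX arrays and 251350 to 733489 on OVA/OVA arrays, where replicates 1 and 4 were bright and the other 4 were at 407898 or less. Between 224 and 271 miRNAs were detected on an OVA/OVA DEX array and between 240 and 301 on an OVA/OVA array. Each slide held 2 OVA/OVA DEX arrays, with 2 OVA/OVA arrays on slide 1 and 4 on slide 2. Signals were scaled between arrays by their 75th percentile, set to a floor of 0.77 where lower, and given as log2 scaled signal, so that a difference of 1 is 2-fold. The whole-lung label was checked against marker miRNAs. Endothelial miR-126-3p and epithelial, smooth muscle and fibroblast miRNAs were measured on these arrays, while of 8 miRNAs of liver, neural tissue and pancreas 7 were detected on none of the 10 arrays and 0 could be tested.

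More miRNAs were lower than higher by at least 2-fold in lungs of dexamethasone-treated mice. By limma's moderated test with Benjamini-Hochberg adjustment, 25 of 266 miRNAs passed both thresholds (an adjusted p under 0.05, and 2-fold or more) as lower in OVA/OVA DEX (9.4% of those tested), and 9 were higher (3.38%). Without the 2-fold threshold 56 were lower (21.1%) and 86 higher (32.3%; 53.4% in either direction, and 60.2% at an unadjusted p under 0.05), so that small rises were more frequent than small falls. The arrays of the groups did not overlap for 20 of the 25, against 14.7% of all miRNAs tested as lower. They did not for 6 of the 9, against 16.5% as higher (31.2% in either direction). The called miRNAs were chosen for large differences on the same arrays, so more separation among them was built in. On each slide analysed alone the 34 kept their direction, which their choice on the pooled arrays largely fixes, and 25 of them stayed called on slide 1 and 16 on slide 2. Of the 34, 21 are among the 29 miRNAs that the study lists as differing between its groups on these arrays, and 13 are not; since that list was chosen on these samples, it is not independent evidence of direction.

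The number of calls depended on how arrays were scaled, and so did the split between lower and higher. Scaling by the percentile over all mouse miRNAs gave 18 lower and 19 higher, no scaling gave 13 and 10, quantile normalization 17 and 13, and scaling by control spots 10 and 64. The median difference over all miRNAs was 0.09 in the values used here and 0.31, 0.38, 0.14 and 0.74 in these alternatives. With normexp background correction it was -0.16, with 5 lower and 2 higher. Normexp here added an offset of 50 to each spot, which shrinks the differences of low-signal miRNAs. All 25 falls kept their direction in each of these settings, and the 9 rises did so except for 5 low-signal miRNAs under normexp. Scaling by control spots turned the direction of smaller falls described below, among them miR-142-5p, miR-223-3p, miR-19a-3p, miR-20a-5p, miR-34a-5p, miR-362-3p, miR-378-5p and miR-425-5p.

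**Figure D1:**
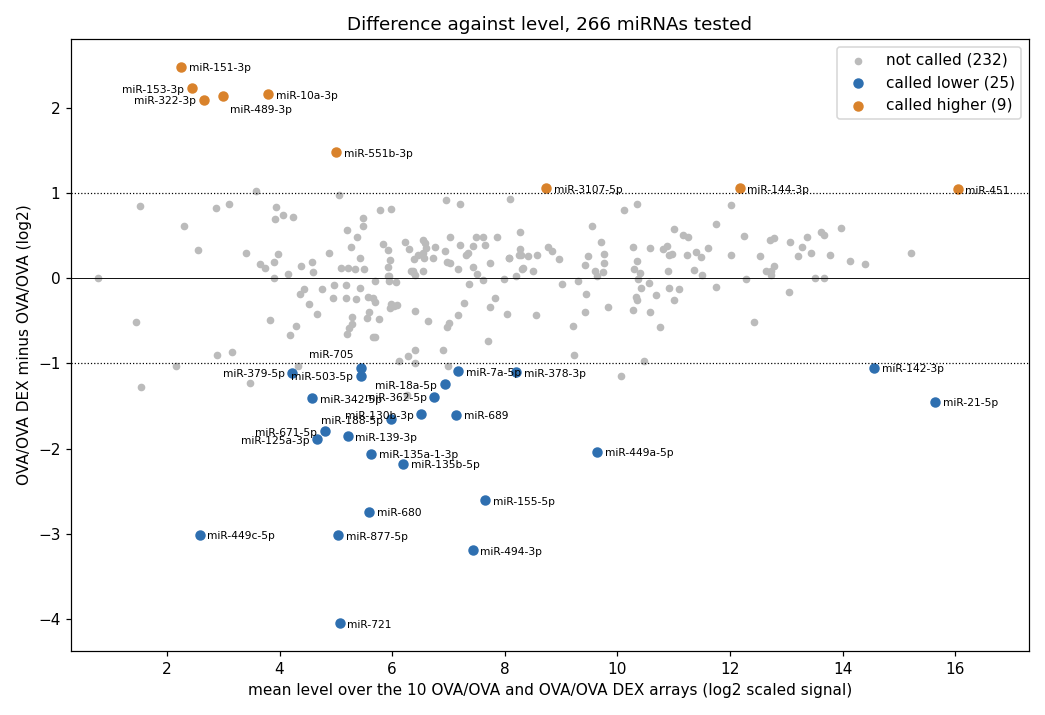
Difference between OVA/OVA DEX and OVA/OVA (log2, y axis) against the mean level over the 10 arrays (log2 scaled signal, x axis) for the 266 miRNAs tested, with the 25 called lower in blue and the 9 called higher in orange. miR-21-5p, miR-142-3p and miR-449a-5p lie among the falls, and 5 of the 9 rises lie at the lowest levels.

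Among miRNAs of leukocytes and inflammation, miR-155-5p fell most. This miRNA is induced in activated T cells, B cells and macrophages. Its level was 5.83, 5.64, 6.57 and 6.33 on the OVA/OVA DEX arrays and had a lowest value of 8.06, a median of 8.79 and a highest value of 9.24 on the OVA/OVA arrays. All OVA/OVA DEX arrays thus lay below all OVA/OVA arrays, by at least 1.49. The difference was -2.60 ± 0.27 (SE), a 6.08-fold fall (limma adjusted p = 1.65e-05), with -3.0 on slide 1 and -2.40 on slide 2. PBS/OVA arrays were at 6.47 to 7.25 and PBS/PBS arrays at 6.44 and 6.97. Against PBS/OVA, the level in OVA/OVA DEX differed by -0.73 ± 0.29 (limma adjusted p = 0.16).

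miR-21a-5p, listed on the array as miR-21-5p, is widespread and rises in inflamed and remodelling tissue. It was measured at 14.87, 14.53, 15.11 and 14.59 with dexamethasone and at 15.80 to 16.50 (median 16.33) without, and the groups did not overlap. The fall was 2.73-fold (-1.45 ± 0.18, limma adjusted p = 4.32e-05). PBS/OVA arrays were at 14.98 to 15.77, overlapping the OVA/OVA DEX arrays, and the difference of OVA/OVA DEX from PBS/OVA was -0.52 ± 0.20 (limma adjusted p = 0.146).

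miR-142a is expressed across the haematopoietic lineage, and both of its arms fell. The 3p arm was at 13.98, 13.78, 14.26 and 13.68 in OVA/OVA DEX and at 14.60 to 15.18 (median 15.11) in OVA/OVA, with no overlap (-1.05 ± 0.16, 2.07-fold, limma adjusted p = 0.000193). Without OVA/OVA DEX replicate 4 the fall was just under 2-fold (-0.97). The 5p arm changed by less, -0.57 ± 0.16 (limma adjusted p = 0.0106). OVA/OVA DEX levels of miR-142-3p differed from PBS/OVA by -0.02 (limma adjusted p = 0.97).

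miR-342, another hairpin of lymphoid and myeloid cells, also fell in both arms. The 5p arm was at 3.49, 4.12, 4.00 and 3.31 with dexamethasone and at 4.66 to 5.33 without (-1.41 ± 0.16, limma adjusted p = 2.91e-05), and was detected on 2 of the 4 OVA/OVA DEX arrays. The 3p arm fell by 0.90 with an SE of 0.10 (limma adjusted p = 2.69e-05). The groups did not overlap for either arm. For the 3p arm, OVA/OVA DEX was also below PBS/OVA, with a difference of -0.58 ± 0.11 (limma adjusted p = 0.00786).

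miR-223-3p, a miRNA of neutrophils and other myeloid cells, changed less. It was at 12.12, 12.26, 12.39 and 11.72 in OVA/OVA DEX, and its lowest, median and highest OVA/OVA values were 12.27, 12.66 and 12.99. The groups overlapped, and the fall of 0.51 with an SE of 0.16 passed the test (limma adjusted p = 0.0143) but not the 2-fold threshold. On slide 2 alone the difference was -0.19. PBS/OVA arrays were at 11.38 to 11.64, below each OVA/OVA DEX array, and the difference between OVA/OVA DEX and PBS/OVA was 0.61 (limma adjusted p = 0.0684).

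Of the 7 tested members of the haematopoietic list (both arms of miR-142 and miR-342, with miR-155, miR-223 and miR-150), 6 passed the test as lower and 0 as higher, against 21.1% and 32.3% of all miRNAs, and 3 of them fell at least 2-fold, against 9.4%. miR-150-5p, a miRNA of mature lymphocytes, was -0.44 ± 0.20 (limma adjusted p = 0.077). The list's median difference was -0.90, against 0.09 over all miRNAs tested. Its summed level was 14.18 to 14.74 in OVA/OVA DEX, 15.02 to 15.58 in OVA/OVA and 14.00 to 14.57 in PBS/OVA. All 7 members lay below the median of all miRNAs with quantile normalization and with normexp. The other alternatives above rescale whole arrays and shift all miRNAs nearly alike, so they could hardly change this.

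Of 8 tested miRNAs known to be induced in inflammation, 4 passed the test as lower and 0 as higher, against 21.1% and 32.3% of all miRNAs tested. These 4 were miR-155-5p and miR-21-5p, described above, miR-146b-5p and miR-132-3p (-0.66 ± 0.21, limma adjusted p = 0.0157). miR-146b-5p, an NF-κB-induced miRNA that targets signalling adaptors of Toll-like receptors, was at 9.98, 9.76, 9.93 and 9.86 with dexamethasone and 10.71 to 11.01 without (-0.97 ± 0.09, limma adjusted p = 1.65e-05). miR-146a-5p, with the same seed from another locus, differed by -0.06 ± 0.11 (limma adjusted p = 0.67), and its OVA/OVA DEX arrays (10.38 to 10.61) lay within the OVA/OVA range (10.26 to 10.74). miR-221-3p differed by -0.04 ± 0.09 (limma adjusted p = 0.75). The difference between the seed mates miR-146b and miR-146a was not itself tested.

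**Figure D2:**
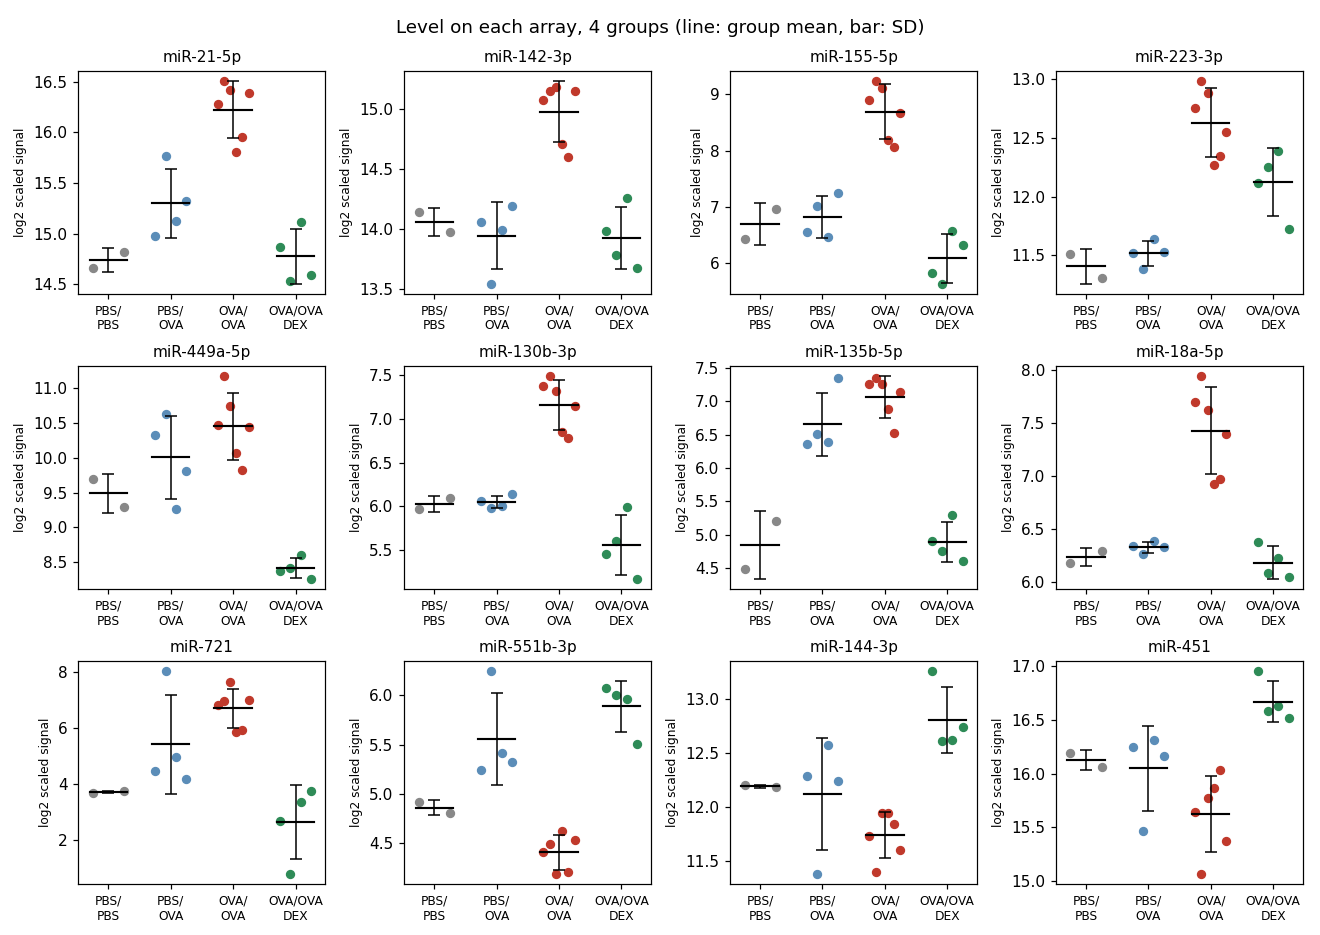
Level of 12 miRNAs (log2 scaled signal, y axis) on each array of the 4 groups. Points are arrays, lines are group means and bars are SD, and the 4 OVA/OVA DEX arrays lie below all 6 OVA/OVA arrays for miR-21-5p, miR-142-3p, miR-155-5p, miR-449a-5p, miR-130b-3p, miR-135b-5p, miR-18a-5p and miR-721 and above them for miR-551b-3p, miR-144-3p and miR-451, while the groups overlap for miR-223-3p.

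miR-449a and miR-449c, which are made in multiciliated cells from adjacent hairpins, fell with dexamethasone. miR-449a-5p was at 8.37, 8.42, 8.60 and 8.26 in OVA/OVA DEX and at 9.82 to 11.17 (median 10.45) in OVA/OVA. The arrays were separated by 1.22, and the fall was 4.11-fold (-2.04 ± 0.27, limma adjusted p = 9.08e-05). It was also lower than in PBS/OVA (9.26 to 10.63), with a difference of -1.59 ± 0.30 (limma adjusted p = 0.00786), and the PBS/PBS arrays were at 9.69 and 9.29. miR-449c-5p was detected on none of the OVA/OVA DEX arrays, all of which were at the floor, and on all 6 OVA/OVA arrays, 1 of them also at the floor and the highest at 5.11. Its fitted difference was -3.01 ± 0.74 (limma adjusted p = 0.00512), and ran from -4.14 to -0.39 over the alternatives. With the signal of the dimmest detected miRNA standing in for it on OVA/OVA DEX arrays, it was 2.62-fold lower there.

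Of the other miRNAs of multiciliated cells, miR-449b was not tested. miR-34b-5p, with the seed of miR-449, was at 11.33, 11.11, 11.19 and 10.91 in OVA/OVA DEX and at 10.69 to 10.94 in OVA/OVA, a difference of 0.28 ± 0.08 (limma adjusted p = 0.00777). miR-34c-5p differed by 0.36 ± 0.08 (limma adjusted p = 0.00201), with no overlap between the groups. Of 6 tested members of the ciliated list, 2 thus passed as lower (both miR-449) and 3 as higher (all miR-34), against 21.1% and 32.3% of all miRNAs, and the list's summed level was 11.83 to 12.18 in OVA/OVA DEX and 11.98 to 12.40 in OVA/OVA. miR-34a-5p, a widespread p53-induced relative with the same seed, was -0.39 ± 0.12 (limma adjusted p = 0.0157). The differences between these seed mates were not tested against each other.

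The seed AGUGCAA was shared by 4 tested miRNAs, of which 2 were called lower and 2 did not pass the test. miR-130b-3p was at 5.46, 5.60, 6.00 and 5.18 with dexamethasone and 6.78 to 7.49 (median 7.23) in OVA/OVA, a 3.03-fold fall with no overlap (-1.60 ± 0.16, limma adjusted p = 1.65e-05). Its PBS/OVA arrays lay at 5.98 to 6.14. miR-721 was detected on none of the OVA/OVA DEX arrays (2.68, 0.77, 3.34 and 3.74) and on all OVA/OVA arrays (5.83 to 7.62). Its fitted difference was -4.05 ± 0.73 (limma adjusted p = 0.000682), and ran from -4.92 to -0.66 over the alternatives. With a stand-in signal on OVA/OVA DEX arrays, as for miR-449c-5p, the fall was 10.9-fold. On PBS/OVA arrays miR-721 was at 4.18 to 4.95 except on replicate 2, where it was at 8.01. miR-301a-3p differed by -0.19 ± 0.08 (limma adjusted p = 0.0521). miR-130a-3p, with a mean of 12.29 in OVA/OVA, differed by -0.01 ± 0.08 (limma adjusted p = 0.96).

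**Figure D3:**
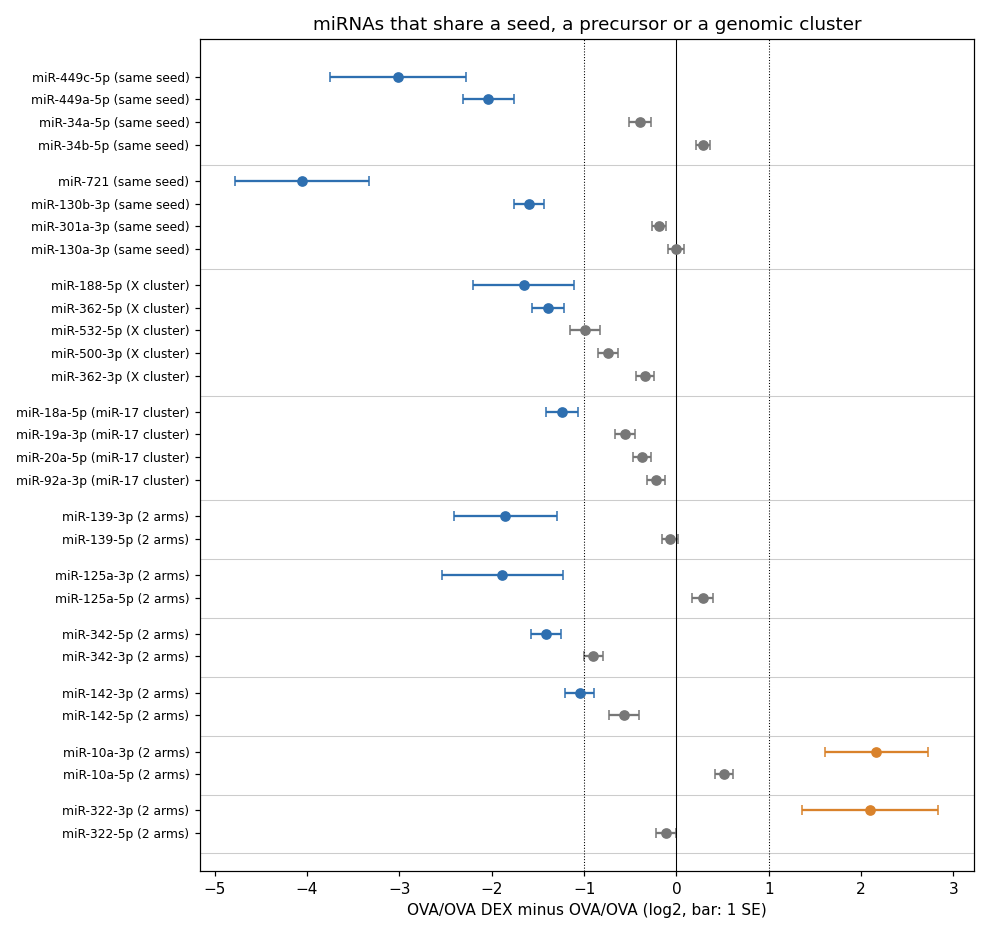
Difference between OVA/OVA DEX and OVA/OVA (log2, x axis; points are the fitted difference and bars 1 SE) for miRNAs that share a seed, a genomic cluster or a hairpin. Blue marks miRNAs called lower, orange those called higher and grey those not called; within the seed groups miR-449a, miR-449c, miR-130b and miR-721 lie left of their relatives.

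miR-135b-5p and miR-135a-1-3p both fell. They are opposite arms of hairpins from different genes, and miR-135a-5p, the arm that corresponds to miR-135b-5p, was not tested. miR-135b-5p was at 4.90, 4.75, 5.30 and 4.61 in OVA/OVA DEX and at 6.52 to 7.36 (median 7.19) in OVA/OVA, a 4.53-fold fall (-2.18 ± 0.23, limma adjusted p = 1.65e-05). The control groups differed here. PBS/OVA arrays were at 6.36 to 7.35, close to OVA/OVA, and PBS/PBS arrays were at 4.48 and 5.20, close to OVA/OVA DEX. Against PBS/OVA the difference was -1.77 ± 0.25 (limma adjusted p = 0.00202). miR-135a-1-3p was at 4.55, 3.55, 4.74 and 4.71 with dexamethasone and 5.80 to 7.01 without (-2.06 ± 0.34, limma adjusted p = 0.000403).

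In the miR-17 to miR-92a cluster, whose miRNAs promote proliferation and are cut from 1 transcript, miR-18a-5p fell most. It was at 6.38, 6.08, 6.23 and 6.05 in OVA/OVA DEX and at 6.93 to 7.94 (median 7.51) in OVA/OVA (-1.24 ± 0.17, 2.37-fold, limma adjusted p = 0.000116). PBS/OVA arrays were at 6.26 to 6.39. miR-19a-3p (-0.56 ± 0.11, limma adjusted p = 0.00101) and miR-20a-5p (-0.37 ± 0.10, limma adjusted p = 0.00661) fell by less, and miR-92a-3p differed by -0.22 ± 0.10 (limma adjusted p = 0.0652). miR-17-3p also passed as lower (-0.52, limma adjusted p = 0.0040), while miR-17-5p (0.0018), miR-19b-3p (-0.12) and miR-20a-3p (0.12) did not pass. In all, 4 of the 8 tested members passed as lower and 0 as higher, against 21.1% and 32.3% of all miRNAs, with a median of -0.30.

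The miR-188 cluster on the X chromosome, which lies within an intron of the Clcn5 gene, had 9 members on the array, of which 6 were tested. miR-362-5p was at 6.08, 5.89, 6.16 and 5.54 with dexamethasone and 6.81 to 7.63 without, with no overlap (-1.39 ± 0.17, 2.62-fold, limma adjusted p = 4.38e-05). miR-188-5p was at 5.24, 4.50, 5.06 and 5.13 and was detected on 1 of the 4 OVA/OVA DEX arrays, against 5.87 to 7.49 on the 6 OVA/OVA arrays, which all detected it (-1.66 ± 0.55, 3.15-fold, limma adjusted p = 0.0213). Without OVA/OVA DEX replicate 2 its adjusted p was 0.0626. miR-532-5p (-0.99 ± 0.16), miR-500-3p (-0.74 ± 0.11) and miR-362-3p (-0.34 ± 0.10) also passed the test, under 2-fold. miR-532-3p was -0.42 ± 0.19 (limma adjusted p = 0.0791). Of the 6, 5 passed as lower and 0 as higher, against 21.1% and 32.3% of all miRNAs, with a median of -0.87, and their differences ran from -1.66 to -0.34.

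Other falls concerned miR-7a-5p, miR-378a and miR-503-5p. miR-7a-5p was at 6.67, 6.33, 6.65 and 6.44 in OVA/OVA DEX and at 7.28 to 7.86 in OVA/OVA, with no overlap (-1.09 ± 0.12, limma adjusted p = 2.69e-05). miR-378a-3p (miR-378-3p on the array) is cut from a hairpin within the metabolic coactivator gene Ppargc1b. It was at 7.58, 7.19, 7.74 and 7.63 with dexamethasone and 8.19 to 8.99 without (-1.11 ± 0.16, limma adjusted p = 0.000144), and its 5p arm, at -0.65 ± 0.12, also passed (limma adjusted p = 0.000713). Without OVA/OVA DEX replicate 2 the 3p arm was just under 2-fold (-0.99).

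miR-503-5p, a cell-cycle miRNA, was at 4.80, 4.56, 4.36 and 5.29 in OVA/OVA DEX and 5.64 to 6.15 in OVA/OVA (-1.15 ± 0.18, limma adjusted p = 0.000314). Its neighbour miR-322-5p, 279 bases away on the X chromosome, was measured at 10.72 to 10.92 with and 10.62 to 11.24 without dexamethasone (-0.12 ± 0.11, limma adjusted p = 0.40). miR-379-5p, of the imprinted cluster on chromosome 12, fell by 1.11 with an SE of 0.34 (limma adjusted p = 0.0143), and was detected on 2 of 4 OVA/OVA DEX and 5 of 6 OVA/OVA arrays. Without OVA/OVA DEX replicate 4 it was just under 2-fold (-0.99).

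miR-494-3p, 6302 bases from miR-379-5p, had the widest spread of all called miRNAs. It was at 6.99, 4.84, 4.70 and 5.50 in OVA/OVA DEX, and its lowest, median and highest OVA/OVA values were 5.88, 8.72 and 11.29. The groups overlapped. The fitted difference was -3.20 ± 0.96 (limma adjusted p = 0.0141), and with the 2 dimmest OVA/OVA arrays left out it was -2.62 (limma adjusted p = 0.0627).

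Further calls concerned miRNAs with low signal. miR-877-5p was detected on all 6 OVA/OVA arrays (5.56 to 6.71) and on none in OVA/OVA DEX (3.87, 1.55, 3.66 and 3.85). Its fitted difference was -3.02 (limma adjusted p = 0.000144), and ran from -3.77 to -0.55 over the alternatives. With a stand-in signal on OVA/OVA DEX arrays, as for miR-449c-5p, it was 7.17-fold lower there. miR-680 was at 4.02, 2.75, 4.42 and 4.58, also not detected, against 6.00 to 7.38. Its fitted difference was -2.74 (6.7-fold, limma adjusted p = 0.000314), taken from undetected signals, and ran from -3.52 to -0.58 over the alternatives. Neither overlapped between the groups. For both the lowest array was OVA/OVA DEX replicate 2.

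miR-125a-3p, miR-139-3p, miR-671-5p, miR-689 and miR-705 were each highest on OVA/OVA replicate 3. miR-139-3p was at 8.09 there and at 4.52 to 6.60 on the other OVA/OVA arrays, against 4.52, 3.62, 3.92 and 4.34 in OVA/OVA DEX (-1.85 ± 0.56, limma adjusted p = 0.0141). miR-125a-3p was at 8.08 on that array, at 3.37 to 5.70 on the others, and at 3.38 to 3.80 with dexamethasone (-1.89 ± 0.65, limma adjusted p = 0.0266). miR-671-5p (-1.79 ± 0.65), miR-689 (-1.60 ± 0.58) and miR-705 (-1.05 ± 0.40) had adjusted p-values of 0.0326, 0.0324 and 0.0406 by limma. Without OVA/OVA replicate 3 these 3 were -1.37, -1.31 and -0.79, and none of them passed the test (limma adjusted p = 0.0549, 0.0644 and 0.0718). Leaving out 5, 6 and 9 other arrays, each on its own, also ended the calls of miR-671-5p, miR-689 and miR-705. Leaving out OVA/OVA DEX replicate 2, 3 or 4 did so for miR-125a-3p, though its difference stayed at -1.90, -1.84 and -1.84. The limma adjusted p was then 0.0532, 0.0531 and 0.0549.

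The other arms of 3 of these hairpins were also measured, and the difference between arms was not tested. miR-139-5p was at 7.24 to 7.45 in OVA/OVA DEX and 7.17 to 7.60 in OVA/OVA (-0.07 ± 0.09, limma adjusted p = 0.56). miR-125a-5p was 0.28 ± 0.11 higher (limma adjusted p = 0.0475), and miR-877-3p was -0.39 ± 0.69 (limma adjusted p = 0.66). The called-lower miRNAs varied in their share of G. In the 22 called-lower miRNAs with a RefSeq sequence the median share of G was 37.2%, and in the 218 of 266 tested miRNAs with one it was 22.7%. The share ran from 18.2% in miR-494-3p to 70.0% in miR-705, and miR-1224-5p, with 61.9%, did not pass the test (-1.14 ± 0.59, limma adjusted p = 0.118). On PBS/OVA replicate 2, miR-721, miR-188-5p, miR-689, miR-680 and miR-877-5p were also higher than on the other PBS/OVA arrays, for example 9.21 against 6.11 to 6.36 for miR-689. The part of base composition or of single arrays in these falls was not tested.

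Dexamethasone-treated lungs held more of the erythroid miRNAs. miR-451a, which is processed by Ago2 and is the main miRNA of red cells, was at 16.95, 16.58, 16.63 and 16.51 in OVA/OVA DEX and at 15.07 to 16.03 (median 15.71) in OVA/OVA, with no overlap (1.04 ± 0.20, 2.06-fold, limma adjusted p = 0.000922). miR-144-3p, 139 bases from it on chromosome 11, was at 13.25, 12.61, 12.62 and 12.74 against 11.40 to 11.95 (1.06 ± 0.20, limma adjusted p = 0.00101). miR-486-5p, listed on the array as miR-3107-5p, was at 9.82, 9.30, 9.36 and 8.97 against 8.0 to 8.56 (1.06 ± 0.18, limma adjusted p = 0.000532). PBS/OVA arrays of miR-451a were at 15.47 to 16.31, and the difference of OVA/OVA DEX from PBS/OVA was 0.62 (limma adjusted p = 0.13). All 3 members of the list thus rose, against 32.3% of all miRNAs passing as higher. Their summed level was 16.62 to 17.07 in OVA/OVA DEX and 15.19 to 16.12 in OVA/OVA. Without OVA/OVA replicate 2, or without OVA/OVA DEX replicate 1, all 3 were just under 2-fold (0.90 to 0.99), as was miR-451a without OVA/OVA replicate 6 (0.99).

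miR-551b-3p rose 2.79-fold. It is in the study's list and in no list of a cell type, family or cluster. It was at 6.07, 6.00, 5.97 and 5.51 with dexamethasone and at 4.19 to 4.63 without, with no overlap (1.48 ± 0.18, limma adjusted p = 4.32e-05). PBS/OVA arrays were at 5.24 to 6.25 and PBS/PBS arrays at 4.92 and 4.81. The OVA/OVA DEX level differed from PBS/OVA by 0.33 (limma adjusted p = 0.36). Under normexp background correction, whose offset shrinks differences of low signals, the difference was 0.09.

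The other 5 rises concerned miRNAs near the floor, miR-151-3p, miR-153-3p, miR-10a-3p, miR-489-3p and miR-322-3p. Each was detected on 2 to 4 of the 6 OVA/OVA arrays and on 3 or 4 of the 4 OVA/OVA DEX arrays. miR-151-3p was at 4.41, 4.08, 3.41 and 3.09 in OVA/OVA DEX, at 3.17 and 1.31 on OVA/OVA replicates 4 and 1, and at the floor on the other 4 (2.49 ± 0.44, limma adjusted p = 0.000655). miR-10a-3p was at 5.40, 4.99, 4.71 and 5.29 with dexamethasone, at 4.54 and 3.87 on OVA/OVA replicates 4 and 1, and at 1.13 to 3.43 on the others (2.17 ± 0.56, limma adjusted p = 0.00703). miR-153-3p, miR-489-3p and miR-322-3p differed by 2.23, 2.14 and 2.10. The call of miR-322-3p (limma adjusted p = 0.0281) was lost without OVA/OVA replicate 2, 3 or 6, each left out on its own. It was also lost without OVA/OVA DEX replicate 2 or 4. Its limma adjusted p was then 0.0558 to 0.0874.

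These 5 had higher values on the 2 brightest OVA/OVA arrays than on the other 4. Their mean level was 3.88 and 2.93 on the 2 brightest OVA/OVA arrays (replicates 4 and 1), 0.89 to 1.51 on the other 4, and 3.63 to 4.50 in OVA/OVA DEX. With the 2 brightest arrays alone as the OVA/OVA group, the 5 differences were 1.51 for miR-151-3p, 0.89 for miR-10a-3p, 0.68 for miR-153-3p, 0.61 for miR-489-3p and 0.13 for miR-322-3p, and none passed the test. That subset was chosen after seeing the data. With the log2 summed signal of the array as a covariate in the fit over all arrays, 4 of the 5 stayed called, at 2.0 for miR-151-3p, 1.52 for miR-153-3p, 1.47 for miR-10a-3p and 1.33 for miR-489-3p, and miR-322-3p was at 1.18 (limma adjusted p = 0.0589). The part of array brightness in these rises was not tested further. With normexp the 5 differences were -0.19 to -0.13, near the median of -0.16 over all miRNAs. Its offset shrinks differences of low signals, so these values cannot tell whether the rises are reversed. miR-155-5p (-2.46) and miR-449a-5p (-1.85) remained called against these 2 arrays, and 18 of the 34 called miRNAs did so in all. The other arms of 3 of the hairpins were 0.51 ± 0.10 higher for miR-10a-5p and 0.35 ± 0.10 higher for miR-151-5p (limma adjusted p = 0.00099 and 0.0132), and -0.12 for miR-322-5p. miR-425-5p, with the seed of miR-489-3p, was -0.43 ± 0.12 (limma adjusted p = 0.0099).

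**Figure D4:**
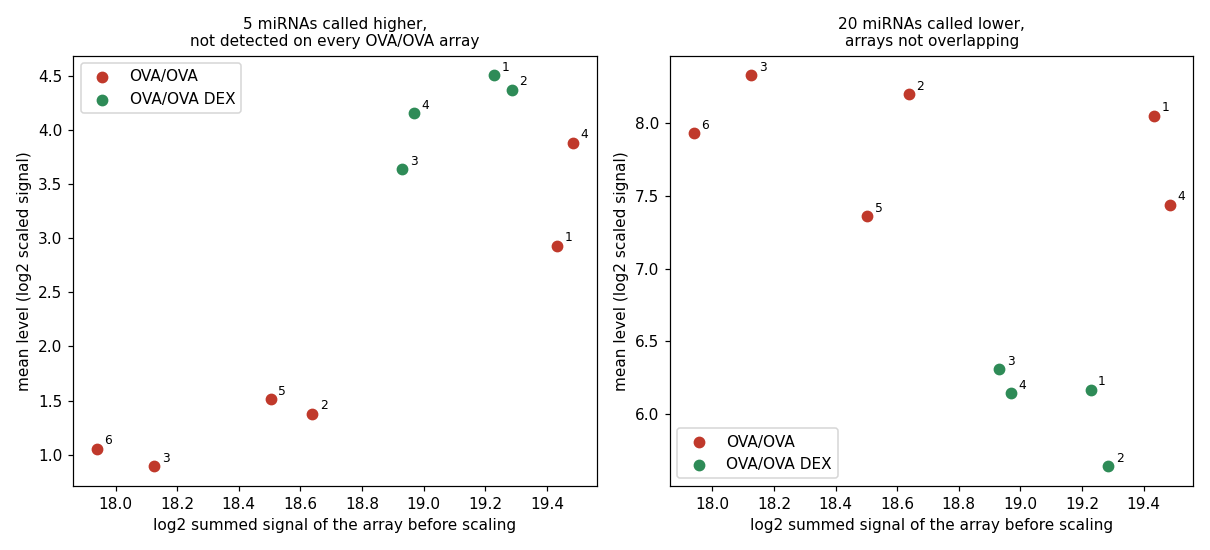
Mean level (log2 scaled signal, y axis) of the 5 low-signal miRNAs called higher (left) and of the 20 called lower without overlap (right) against the summed signal of the array before scaling (log2, x axis), with replicate numbers beside the points. On the left OVA/OVA replicates 1 and 4, the brightest, lie near OVA/OVA DEX and the 4 dim ones lie far below. On the right the miRNAs were chosen for not overlapping, and the OVA/OVA arrays lie at 7.36 to 8.33 whether bright or dim.

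Of all miRNAs tested, 32.3% passed as higher and 21.1% as lower, most of them under 2-fold, and the following counts of family and cell type lists stand against these shares. In the let-7 family 4 of 13 passed as higher and 1 as lower, and in the list of miR-15, miR-16, miR-503 and related hairpins 3 of 9 and 1. Both lists count both arms, which differ in seed. In the 2nd list the 3 were miR-195-5p, miR-497-5p and the low-signal miR-322-3p. miR-30 family members, which are abundant in epithelium and endothelium, passed as higher in 8 of 10 cases and as lower in 0, with a median of 0.54 against 0.09 over all miRNAs. miR-30c-5p was at 12.58, 12.57, 12.61 and 12.39 in OVA/OVA DEX and at 11.21 to 12.00 in OVA/OVA (0.86 ± 0.15, limma adjusted p = 0.000671). miR-30b-5p (0.64 ± 0.12) and miR-30a-5p (0.55 ± 0.09) rose by less, and the arrays did not overlap for these 3. With quantile normalization 10 of the 10 members lay above the median of all miRNAs, and with normexp 8 did. Rescaling whole arrays shifts all miRNAs nearly alike and could hardly change this.

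miR-29, which targets collagen mRNAs, passed as higher in 5 of 6 members, with miR-29c-3p at 0.49 ± 0.11 (limma adjusted p = 0.00224) and miR-29a-3p at 0.36 ± 0.10 (limma adjusted p = 0.00709). With quantile normalization 3 of the 6 were above and 3 below the median of all miRNAs. Of the miR-23, miR-27 and miR-24 clusters, 6 of 7 passed as higher, with miR-23a-3p at 0.59 ± 0.11 (limma adjusted p = 0.000722). In the miR-181 family 3 of 5 passed as higher, among them miR-181a-5p, a regulator of lymphocyte signalling (0.43 ± 0.08, limma adjusted p = 0.00060). miR-181b-5p (0.05) and miR-181d-5p (-0.05), with the same seed, did not pass (limma adjusted p = 0.42 and 0.70). Both arms of endothelial miR-126 rose, the 5p arm from 9.64 to 10.23 in OVA/OVA to 10.51 to 11.12 in OVA/OVA DEX (0.88 ± 0.17, limma adjusted p = 0.000958) and the 3p arm by 0.30 ± 0.08 (limma adjusted p = 0.00850).

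Striated muscle miRNAs, whose source in whole lung can include the heart or the muscle of large veins, had 5 tested members, of which 3 passed as higher. miR-208b-3p, a cardiac miRNA, was at 6.61, 6.18, 5.99 and 6.25 against 5.10 to 5.92 (0.80 ± 0.16, limma adjusted p = 0.00115), and miR-133b-3p at 8.53, 8.20, 8.93 and 8.94 against 6.98 to 8.30 (0.93 ± 0.27, limma adjusted p = 0.0124). The list's summed level was 10.80 to 11.55 in OVA/OVA DEX and 9.39 to 11.13 in OVA/OVA. All 3 smooth muscle and 3 of 4 fibroblast members passed as higher, with medians of 0.45 and 0.28, while the 8 tested epithelial members had a median of 0.09 with 2 lower and 1 higher. The part of cell composition in these differences was not tested.

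**Figure D5:**
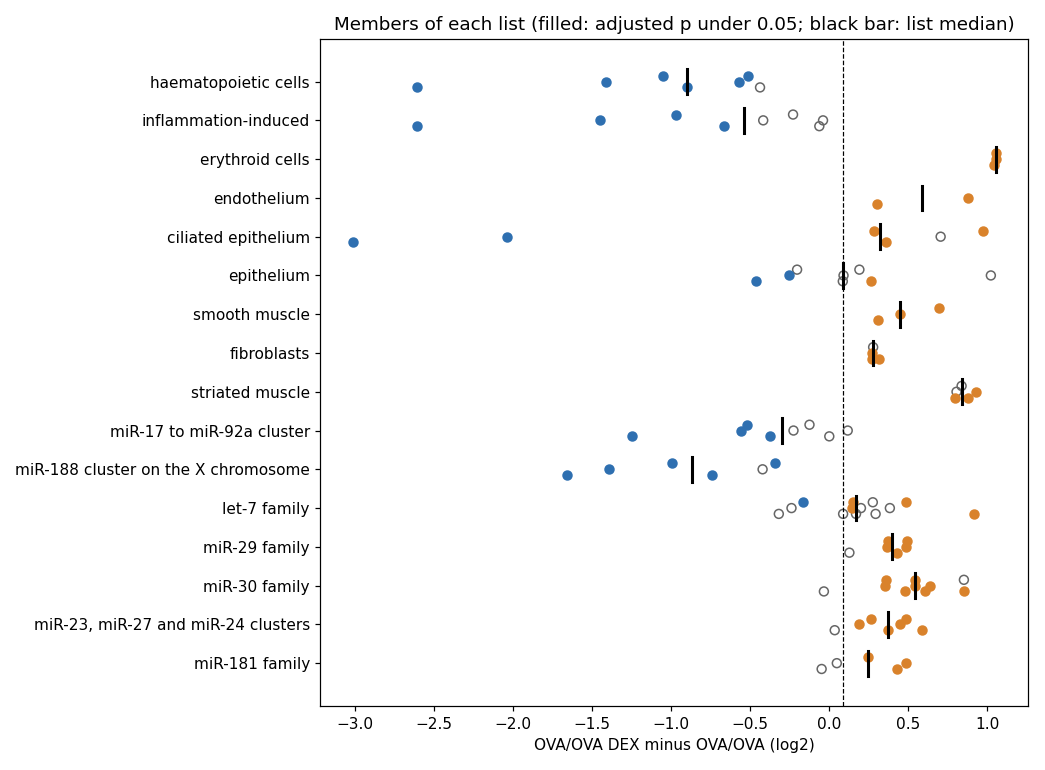
Difference between OVA/OVA DEX and OVA/OVA (log2, x axis) for the tested members of 16 lists (y axis). Filled points passed the test (blue lower, orange higher), open points did not, black bars are list medians and the dashed line is the median of all 266 miRNAs at 0.09; haematopoietic members lie left of it and erythroid, miR-30 and striated muscle members mostly right of it.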

How the data were processed

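Per the labels and the study's methods, the authors hybridised RNA with an RNA integrity number of at least 8 and processed scans with Agilent Feature Extraction 10.7.3.1 (the submitters' processing notes). The deposited scanner files hold background-subtracted spot intensity that had not been normalized across arrays. The authors also deposited log2 values, used as an alternative only.

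Control spots and outlier-flagged spots were left out (0 spots were saturated), replicate spots were averaged by probe, and probe values were added up by miRNA. For scaling, the divisor of an array was the 75th percentile of its signals for the 206 mouse miRNAs that all 16 arrays detected. Values were floored at 1.71 and put on log2. A model of group means over the full set of arrays was fitted by limma 3.58.1 (R 4.3.3) and Benjamini-Hochberg adjustment over 266 miRNAs. Calls needed both an adjusted p below 0.05 and 2-fold or more. The study's methods name Genespring and the Mann-Whitney test and no scaling. For a group without detection, fold bounds used each array's lowest detected signal or the miRNA's own signal where higher. The fit was tested on simulated data.

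The miRNAs named are the called ones, those the study measured by qPCR with miR-146a-5p and miR-221-3p, other arms and seed mates, and list members. Members and lists were chosen with earlier results of these data known. Alternatives covered scaling, background correction, probe summary, deposited values, detection filter, floor, slide, replicate number, variance model, test, threshold and each array left out. Normexp (offset 50) used the median spot signal. Leaving out dim OVA/OVA arrays was added after seeing the data. Other steps used Python 3.11.15, pandas 2.3.3 and numpy 2.4.6. The number of arrays limits the precision. Among the same-numbered OVA/OVA and OVA/OVA DEX arrays, correlations of deviations from the group means ran from -0.22 to 0.18, so the numbers were not taken as pairs.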

Additional observations from a re-analysis of the deposited data

Results flagged for a closer look

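Among the named miRNAs, each examined in OVA/OVA and in OVA/OVA DEX, there were 8 cases in which 1 array stood apart from the rest, judged by its gap to the nearest array as a share of the group's range against Dixon's critical value. Chance alone gives about 1 in 20 groups. The 8 cases were close to that share of the groups examined, so about as many would be flagged by chance. Whether any single one of them is more than chance was not tested. In OVA/OVA DEX, replicate 2 was low for miR-877-5p (1.55, gap share 0.912), miR-705 (4.25, 0.893) and miR-135a-1-3p (3.55, 0.842). Replicate 4 of the same group was low for miR-34a-5p (9.85, 0.921) and miR-130a-3p (11.94, 0.901). In OVA/OVA, replicate 4 was high for miR-151-3p (3.17, 0.774), replicate 5 low for miR-342-5p (4.66, 0.712) and replicate 6 low for miR-425-5p (6.85, 0.673).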

How the results depend on the processing

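Calls lower in OVA/OVA DEX numbered 13 with no scaling, 10 with control spot scaling, 5 with normexp, 9 in the deposited values (150 of the tested miRNAs matched), 15 for miRNAs detected on all 16 arrays, 15 within slide 2 and 56 with no 2-fold threshold, against 25. Calls higher numbered 19 with the percentile over all miRNAs, 64 with control spot scaling, 2 with normexp, 2 in the deposited values, 4 for miRNAs detected on all 16 arrays, 1 within slide 2, 86 with no 2-fold threshold and 4 with the 2 brightest OVA/OVA arrays, against 9. Leaving out 1 array gave 19 to 28 lower and 5 to 13 higher, with 5 higher without OVA/OVA replicate 2. With the replicate number as a block, 29 were lower and 10 higher; the numbers were not taken as pairs. The causes were not tested. Under normexp the difference was -0.13 for miR-10a-3p, -0.19 for miR-151-3p, -0.14 for miR-153-3p, -0.17 for miR-322-3p and -0.18 for miR-489-3p. The median over all miRNAs was -0.16 in that setting.

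Small differences changed sign with the scaling. Under control spot scaling the values were 0.0836 for miR-142-5p, 0.22 for miR-150-5p, 0.0937 for miR-19a-3p, 0.28 for miR-20a-5p, 0.14 for miR-223-3p, 0.26 for miR-34a-5p, 0.31 for miR-362-3p, 0.0011 for miR-378-5p and 0.22 for miR-425-5p. With the percentile over all miRNAs, no scaling and control spots in turn, miR-130a-3p was at 0.21, 0.28 and 0.65, miR-139-5p at 0.16, 0.22 and 0.59, miR-146a-5p at 0.16, 0.23 and 0.59, miR-221-3p at 0.18, 0.25 and 0.61, miR-301a-3p at 0.0332, 0.103 and 0.46, and miR-322-5p at 0.10, 0.17 and 0.54. miR-92a-3p was at 0.0656 with no scaling and 0.43 with control spots. With quantile normalization miR-139-5p was at 0.0450, miR-146a-5p at 0.0220 and miR-221-3p at 0.19.

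miR-130a-3p was also above 0 with normexp (0.0012), slide as a block (0.0056), within slide 2 (0.0841), the replicate block (0.0206), array weights (0.0725) and the 2 brightest OVA/OVA arrays (0.0344), and ran from -0.0490 to 0.109 over the leave-one-out fits (0.0143 without OVA/OVA replicate 5). miR-139-5p was 0.0332 within slide 2 and miR-146a-5p 0.0610 within slide 1. miR-221-3p was 0.0069 with the 2 brightest OVA/OVA arrays, 0.0067 without OVA/OVA replicate 2 and 0.0116 without OVA/OVA DEX replicate 3. miR-877-3p was 0.26 with control spots, 0.13 with array brightness as a covariate, 0.11 within slide 2, 0.15 with the replicate block, 0.71 with the 2 brightest OVA/OVA arrays and ran from -1.03 to 0.0299 over the leave-one-out fits, the latter without OVA/OVA DEX replicate 4.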
